A study of Homo sapiens with 8 samples.

Results

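The ERBB2 amplicon of 17q12 is the stretch of chromosome 17 that is copied many times in HER2-positive breast cancer. It was followed here through 10 of its genes, ERBB2, GRB7, STARD3, PGAP3, MIEN1, TCAP, PNMT, PPP1R1B, IKZF3 and ORMDL3, which were chosen by symbol from the 26475 genes of the series. All 10 genes were found and all 10 passed the filter on low counts, which left 14008 genes for testing. The material was BT474, a HER2-positive line established from a human breast carcinoma, with 8 samples profiled by RNA-seq. The labels put 4 of them in a group called NPY1R high and the other 4 in a group called NPY1R low. NPY1R encodes the receptor Y1 of neuropeptide Y. Both groups were the same cell line, and the labels name no drug or other treatment for either of them, although the title of the series concerns cells that tolerate lapatinib, an inhibitor of the EGFR and ERBB2 kinases. How high and low cells were obtained is not given in the sources used here, nor whether the samples of a group came from separate cultures, so the p-values measure only the spread between these samples, which may be technical.

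ERBB2 encodes HER2, a receptor tyrosine kinase that binds no known ligand of its own and signals as a partner of EGFR, ERBB3 and ERBB4. Amplification raises the copy number of a core of neighbouring genes together, and several of them are highly expressed along with ERBB2 in HER2-positive tumours. GRB7 is an SH2 adaptor that binds activated HER2, STARD3 moves cholesterol at late endosomes, PGAP3 trims the lipids of GPI anchors, MIEN1 is a small membrane-anchored protein linked to cell migration, and ORMDL3 restrains serine palmitoyltransferase, the first enzyme of sphingolipid synthesis. PPP1R1B (DARPP-32, a phosphatase inhibitor best known in neurons), PNMT (the enzyme that makes adrenaline), TCAP (a protein of the muscle sarcomere) and IKZF3 (the lymphoid transcription factor Aiolos) lie among them but are best known from other tissues.

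Libraries held 18025640 to 30609798 counts. NPY1R stood 3.16 log2 units higher in NPY1R high (SE 0.135), at 857 ± 170 CPM (counts scaled to a common library size) against 95.5 ± 5.65 (SD, n = 4 each), and its groups did not overlap. All 10 luminal breast markers checked were expressed, with summed levels of 5223 to 6001 CPM in NPY1R high and 5673 to 6441 in NPY1R low. Among them ESR1 and GATA3 were higher in NPY1R high, and EPCAM, FOXA1 and XBP1 were lower. Of 13 markers of basal, stromal, endothelial and immune cells, KRT14, COL1A2, DCN and CD3E had no count in any library and only 4 passed the filter. Those 4 were VIM, COL1A1 (mean 14.1 CPM in NPY1R high and 15.5 in NPY1R low), VWF (11.7 and 16.1) and CD68 (1.08 and 1.63). Their summed level was 132 to 151 CPM in NPY1R high and 78.0 to 95.4 in NPY1R low, most of it VIM, which was 1.09 log2 units higher in NPY1R high.

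The 10 genes lie within 300.9 kb, at chr17:39626707-39927601 (RefSeq annotation of GRCh38.p14). GRB7, PPP1R1B and ORMDL3 were lower in NPY1R high, and no amplicon gene was higher. ERBB2 itself, which made up between 65.0% and 69.6% of all counts of the 10 genes, was not called by edgeR's quasi-likelihood test with Benjamini-Hochberg adjustment over all genes tested. That test called 3 of the 10 genes, where it called 13.6% of all genes tested, 7.81% lower and 5.78% higher. The excess of lower genes depended on the scaling, and upper-quartile factors gave 1009 genes higher and 783 lower. In bulk samples fewer cells that express a gene and less RNA per cell cannot be told apart. The median log2 fold change (NPY1R high minus low) was -0.23 over the 10 genes and -0.029 over all genes tested.

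ERBB2 (chr17:39688094-39728658, plus strand) reached 3577, 3139.9, 2632 and 3358 CPM in NPY1R high replicates 1 to 4. It reached 4289, 4234, 3641 and 2876 CPM in NPY1R low replicates 1 to 4. Replicates 1 to 3 of NPY1R low lay above every NPY1R high library, while NPY1R low replicate 4 fell inside the NPY1R high range, so the groups overlapped. The means were 3177 ± 405 and 3760.0 ± 658 CPM (SD, n = 4), a log2 difference of -0.24 (SE 0.136, 95% interval -0.55 to 0.060, edgeR adjusted p = 0.306). By mean CPM, ERBB2 ranked 10 among the 14008 genes tested, and it took 0.322% ± 0.0413 of the counts in NPY1R high and 0.370% ± 0.0616 in NPY1R low. Without NPY1R low replicate 4 the log2 difference was -0.32 and the edgeR adjusted p was 0.0493. That library was also the default reference of the TMM scaling. With the 7 other references the log2 difference was -0.22 to -0.20 (edgeR adjusted p = 0.349 to 0.405).

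**Figure D1:**
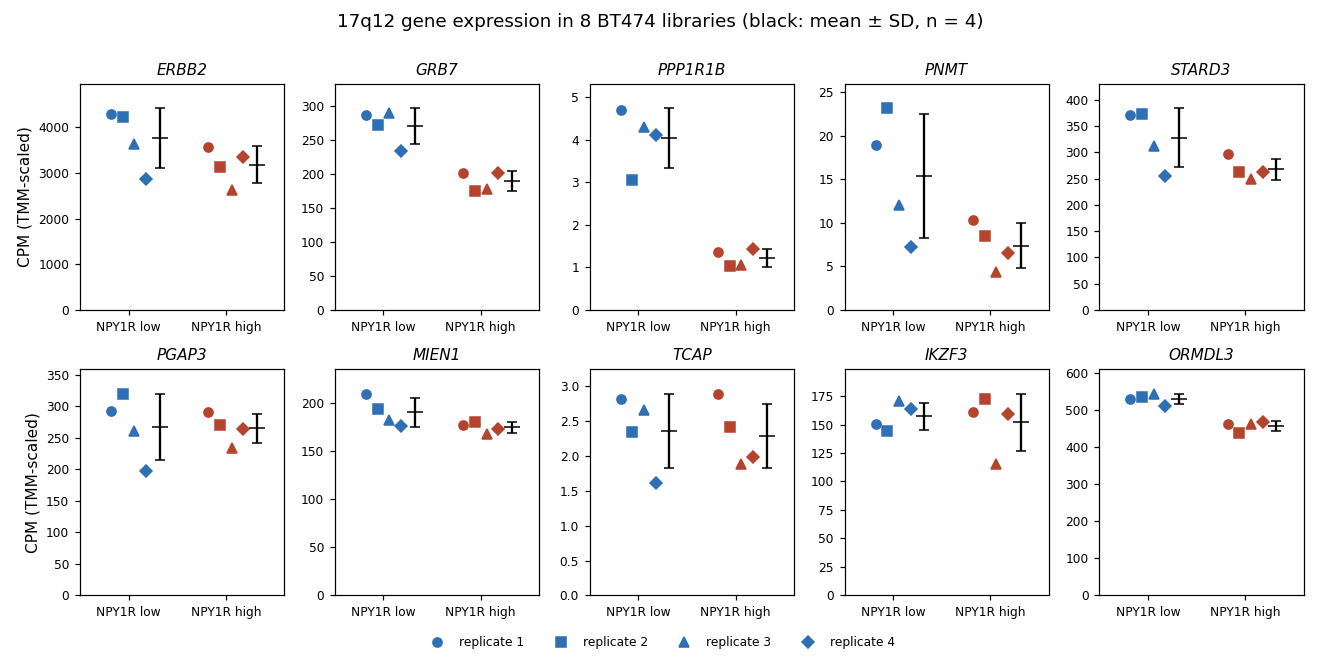
CPM, the counts scaled to a common library size (vertical axis, linear, each panel with its own scale) of the 10 amplicon genes in 4 NPY1R low (blue) and 4 NPY1R high (red) BT474 libraries, with the mean and SD in black beside the points. GRB7, PPP1R1B and ORMDL3 show separate groups, and in most other panels NPY1R low replicate 4 lies among the NPY1R high points.

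GRB7, the adaptor of HER2 (chr17:39737938-39747285, plus strand), was 1.43-fold lower in NPY1R high (95% interval 1.26 to 1.62). It measured 202, 175, 178 and 202 CPM in NPY1R high and 287, 271, 289.7 and 233 CPM in NPY1R low. Every NPY1R high library lay below every NPY1R low library. The log2 fold change was -0.51 (SE 0.082, edgeR adjusted p = 0.00229), and GRB7 stayed past the threshold under all 26 alternative settings, where its log2 fold change ranged from -0.55 to -0.45.

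The 4 genes of membrane lipids and anchors split into 1 that was called and 3 that were not. ORMDL3 (chr17:39921041-39927601, minus strand) gave 462, 437, 464 and 469.6 CPM in NPY1R high and 531, 535, 545 and 513 CPM in NPY1R low. The difference was small next to that of GRB7, but the libraries of each group lay close together and the groups did not overlap. Its log2 fold change was -0.21 (SE 0.047, edgeR adjusted p = 0.0138). The call was lost without NPY1R high replicate 3 (adjusted p = 0.0618), without NPY1R high replicate 4 (0.0707), without NPY1R low replicate 1 (0.0877), with upper-quartile scaling (0.0892) and without the filter on low counts (0.0669).

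STARD3 (chr17:39637144-39664201, plus strand) gave 297, 262, 249.7 and 262 CPM in NPY1R high and 371, 373, 312 and 256 CPM in NPY1R low. As for ERBB2, only NPY1R low replicate 4 reached into the other group. The log2 fold change was -0.29 (SE 0.115, edgeR adjusted p = 0.134). STARD3 was called without NPY1R low replicate 4 (-0.36, adjusted p = 0.00886) and with a covariate for replicates 1 and 2 against 3 and 4 (-0.28, adjusted p = 0.0268), and the value ranged to -0.20 without NPY1R low replicate 1 (adjusted p = 0.358). PGAP3 (chr17:39671122-39688057, minus strand) gave 291, 271, 234 and 264 CPM in NPY1R high and 293, 319, 260.5 and 197 CPM in NPY1R low. Its group means were nearly equal in this scaling, at 265 ± 23.5 and 267 ± 52.9 CPM (SD, n = 4), with a log2 fold change of -0.012 (95% interval -0.31 to 0.28, edgeR adjusted p = 0.971). MIEN1 (chr17:39728510-39730532, minus strand) gave 178, 180.1, 168 and 173 CPM in NPY1R high and 209.9, 194, 182 and 176 CPM in NPY1R low, a log2 fold change of -0.12 (95% interval -0.26 to 0.013, edgeR adjusted p = 0.240). Without 1 library that of MIEN1 ranged from -0.15 (without NPY1R low replicate 3) to -0.044 (without NPY1R low replicate 1), and it was called in none of these 8 fits. Exons of ERBB2 and MIEN1 share 571 bases on opposite strands in GENCODE 29, and those of ERBB2 and PGAP3 share 194. The libraries were made with a stranded kit, but whether the counting used strand is not given in the sources used here, so reads from these stretches cannot be assigned with certainty.

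Of the 4 genes best known from other tissues, PPP1R1B showed the largest fold change of the 10. PPP1R1B (chr17:39626707-39636624, plus strand) had only 40, 28, 29 and 26 counts in NPY1R high and 140, 87, 94 and 105 counts in NPY1R low. In CPM these were 1.37, 1.04, 1.05 and 1.43 against 4.70, 3.05, 4.30 and 4.12, with no overlap. Its level was 3.31-fold lower in NPY1R high (95% interval 2.46 to 4.47, log2 fold change -1.73, SE 0.194, edgeR adjusted p = 0.000286), and it stayed past the threshold under all 26 alternative settings.

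PNMT (chr17:39668019-39670475, plus strand) varied most within groups. It gave 10.3, 8.48, 4.31 and 6.50 CPM in NPY1R high and 19.0, 23.2, 12.1 and 7.23 CPM in NPY1R low, so that only NPY1R low replicate 4 overlapped the NPY1R high libraries. The log2 fold change of -1.05 had an SE of 0.361 and an edgeR adjusted p of 0.0881. Without NPY1R low replicate 4 it was -1.25 with an adjusted p of 0.00943, and without any 1 of the other 7 libraries it was not called, with values from -1.26 (without NPY1R high replicate 1, adjusted p = 0.0773) to -0.79 (without NPY1R low replicate 2, adjusted p = 0.207). With the covariate for replicates 1 and 2 against 3 and 4 the value for PNMT was -1.02 (edgeR adjusted p = 0.0028). TCAP (chr17:39665349-39666554, plus strand) had 36 to 84 counts per library, or 1.88 to 2.89 CPM in NPY1R high and 1.61 to 2.82 CPM in NPY1R low, with a log2 fold change of -0.035 (95% interval -0.52 to 0.45, edgeR adjusted p = 0.948). IKZF3 (chr17:39757715-39864312, minus strand) gave 161, 173, 116 and 159 CPM in NPY1R high and 151, 144, 171 and 163 CPM in NPY1R low. NPY1R high replicate 3 was the lowest of all 8 libraries for IKZF3, and the groups overlapped (log2 fold change -0.047, 95% interval -0.30 to 0.21, edgeR adjusted p = 0.857).

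The CPM of the groups did not overlap for 3 of the 10 genes, against 20.2% of all genes tested (11.4% with NPY1R high lower). All 10 log2 fold changes were below 0 in the scaling used, as were 55.9% of those of all genes tested, but those of PGAP3, TCAP and IKZF3 were near 0 and rose above it under other scalings, upper-quartile scaling for all 3 of them. The samples carry no batch label. When replicates 1 and 2 and replicates 3 and 4 were compared separately, the log2 CPM of ERBB2 differed by -0.35 and -0.12, that of STARD3 by -0.42 and -0.14, and that of GRB7 by -0.57 and -0.46. PPP1R1B differed by -1.60 and -1.72 and ORMDL3 by -0.25 and -0.18, so these 5 genes were lower in NPY1R high in both subsets, as were PNMT (-1.16 and -0.81) and MIEN1 (-0.17 and -0.070). The groups of GRB7, PPP1R1B and ORMDL3 did not overlap, so any such split gives them lower NPY1R high means in both subsets. Both subsets come from the same libraries and add no separate support. IKZF3 differed by 0.18 and -0.30, PGAP3 by -0.12 and 0.14 and TCAP by 0.037 and -0.096, with opposite signs.

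Per kilobase of the principal GENCODE 29 transcript, the levels in NPY1R low fell in the order ERBB2, ORMDL3, MIEN1, STARD3, GRB7, PGAP3, IKZF3, PNMT, PPP1R1B and TCAP. ERBB2 stood at 827 ± 145 CPM per kb there, ORMDL3 at 238 ± 6.06, MIEN1 at 189 ± 14.8 and STARD3 at 154 ± 26.2. GRB7 followed at 120.4 ± 11.7 and PGAP3 at 97.7 ± 19.3, then IKZF3 at 16.3 ± 1.24, PNMT at 12.3 ± 5.67, PPP1R1B at 2.19 ± 0.382 and TCAP at 1.11 ± 0.252 CPM per kb (SD, n = 4). ERBB2 was thus the most abundant of the 10 per length. The ranges of STARD3 and GRB7, of GRB7 and PGAP3, and of IKZF3 and PNMT overlapped in NPY1R low, and those of the other neighbours in this order did not. The TCAP transcript used, of 2123 bases, starts 1.162 kb before the RefSeq start of the gene. A shorter length would raise TCAP per kb, and how its last place depends on the length was not tested.

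In NPY1R high 2 pairs changed places. PGAP3 (96.9 ± 8.57 CPM per kb) stood above GRB7 (84.3 ± 6.58) in 4 of 4 libraries, although the ranges overlapped, where GRB7 had stood above PGAP3 in 4 of 4 NPY1R low libraries. TCAP (1.08 ± 0.216 CPM per kb) stood above PPP1R1B (0.663 ± 0.113) in 4 of 4 libraries, where PPP1R1B had been the higher in 4 of 4 NPY1R low libraries. This second change of places holds for the TCAP length used, since a shorter length would raise TCAP in both groups. The other genes kept their order, from ERBB2 at 699 ± 89.1 and ORMDL3 at 205 ± 6.37 CPM per kb through MIEN1, STARD3 and IKZF3 down to PNMT at 5.90 ± 2.06.

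Dividing by the ERBB2 count of the same library removes the scaling between libraries. On this scale PGAP3 was higher in NPY1R high, at 8.39% ± 0.469 of the ERBB2 count against 7.09% ± 0.331 (SD, n = 4). Its log2 ratio to ERBB2 was -3.62, -3.53, -3.49 and -3.67 in NPY1R high and -3.87, -3.73, -3.81 and -3.87 in NPY1R low, without overlap. PPP1R1B was lower relative to ERBB2, at 0.0385% ± 0.00398 against 0.111% ± 0.0296, also without overlap. PGAP3 differed by 0.24 and PPP1R1B by -1.47 in log2 ratio, each with a two-sided exact permutation p of 0.0286, the smallest that 4 libraries against 4 allow, and an adjusted p of 0.129 over the 9 ratios.

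GRB7 relative to ERBB2 was 5.99% ± 0.542 in NPY1R high and 7.28% ± 0.866 in NPY1R low, and PNMT was 0.229% ± 0.0598 and 0.393% ± 0.129. Both groups overlapped for each of them (log2 differences -0.28 and -0.76, exact permutation p = 0.0857, adjusted p = 0.193). STARD3 stood at 8.48% ± 0.718 and 8.73% ± 0.145 (log2 difference -0.045, exact permutation p = 0.514), and ORMDL3 stood at 14.6% ± 2.07 and 14.5% ± 2.53. The groups did not overlap for 2 of 9 ratios, against 14.7% of the other genes tested, and 0 of 9 passed an adjusted p of 0.05. A ratio could pass that adjustment only if most of the 9 reached the smallest possible p of 0.0286 together. The count of 0 therefore does not show that the ratios were unchanged. By the exact permutation test, 2 of the 9 had an unadjusted p under 0.05, and they are the same 2 that did not overlap.

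**Figure D2:**
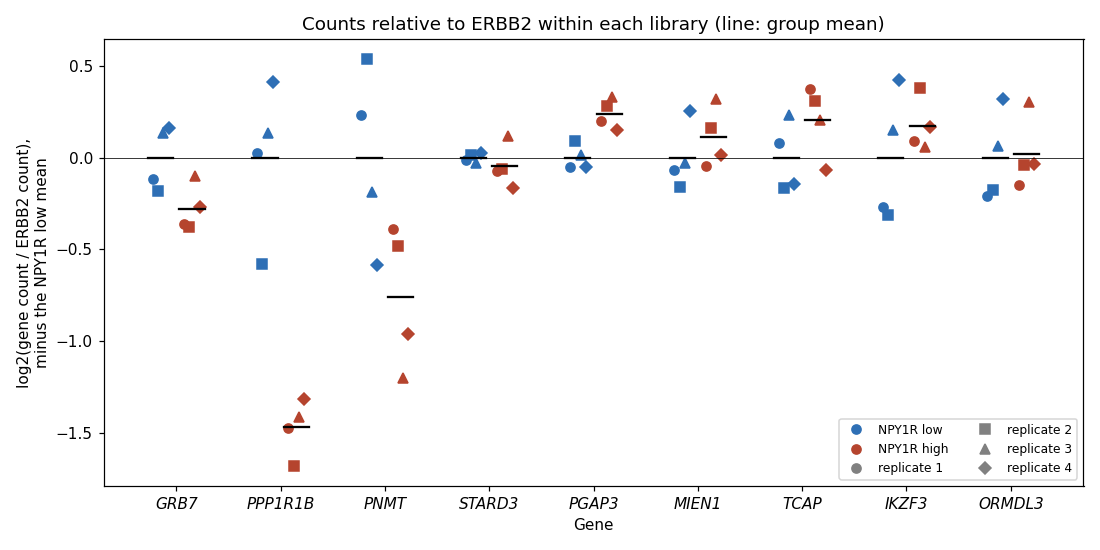
Log2 ratio of each gene's count to the ERBB2 count of the same library (vertical axis), shifted so that the NPY1R low mean is 0, for 4 NPY1R low (blue) and 4 NPY1R high (red) libraries with group means as lines. The NPY1R high mean is at -1.47 for PPP1R1B and at 0.24 for PGAP3, and the groups of the other 7 genes overlap.

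ERBB2 and PGAP3, whose ratio did not overlap between groups, start head to head. In RefSeq their starts face away from each other with 36 bases between them, and their promoter windows (250 bases before and 50 after each start) share 136 bases. Both windows are shown, 5′ to 3′ on the strand of each gene, because 1 stretch serves as the upstream sequence of a gene with a lower mean in NPY1R high and of a gene with nearly equal means. Capitals mark the bases between the RefSeq starts, chr17:39688058-39688093. The ERBB2 window is chr17:39687844-39688143 on the plus strand and the PGAP3 window is chr17:39688008-39688307 on the minus strand, both in GRCh38.p14.
ERBB2: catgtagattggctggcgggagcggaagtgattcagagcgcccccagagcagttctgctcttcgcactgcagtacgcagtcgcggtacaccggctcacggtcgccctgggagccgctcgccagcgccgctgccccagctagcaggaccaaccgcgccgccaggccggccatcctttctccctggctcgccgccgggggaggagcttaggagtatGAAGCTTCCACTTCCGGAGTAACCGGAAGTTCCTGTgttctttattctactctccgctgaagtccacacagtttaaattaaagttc
PGAP3: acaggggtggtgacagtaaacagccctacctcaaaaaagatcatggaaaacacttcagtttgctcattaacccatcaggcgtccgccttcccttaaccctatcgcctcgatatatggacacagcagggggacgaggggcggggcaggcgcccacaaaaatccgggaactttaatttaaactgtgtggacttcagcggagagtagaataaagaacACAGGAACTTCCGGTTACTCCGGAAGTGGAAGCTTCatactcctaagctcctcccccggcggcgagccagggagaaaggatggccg
The principal GENCODE 29 transcript of ERBB2 starts 11.986 kb further into the gene, at chr17:39700080, so this window is the upstream sequence of a longer ERBB2 transcript, and gene-level counts do not tell the transcripts apart.

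RefSeq windows were used for 5 of the 10 genes, ERBB2, STARD3, PGAP3, MIEN1 and ORMDL3. Motifs were searched on both strands among 35116 windows. The core of ETS factor sites, CCGGAAG, searched after the sequences were seen, was in the windows of ERBB2, PGAP3, STARD3 and MIEN1, and in 10.3% of all windows. The ERBB2 and PGAP3 windows hold the same capital bases, so they are not separate cases. The AP-2 motif GCCNNNGGC was in the window of STARD3 (23.2% of all windows), CCAAT in that of ERBB2 (34.6%) and the E-box CACGTG in that of MIEN1 (7.26%). TATAAA, in 11.5% of all windows, was in none of the 5. No match overlapped one of another motif, and a match describes the letters, not binding.

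Several amplicon genes moved with ERBB2 from library to library within the groups. On log2 CPM with each group's mean removed, Pearson's r with ERBB2 over 8 libraries was 0.950 for PGAP3, 0.941 for PNMT and 0.933 for STARD3. These 3 passed an adjusted p of 0.05 over the 9 genes by exact permutation within groups (adjusted p = 0.0312 each), while their Spearman's rho of 0.952, 0.905 and 0.952 gave an adjusted p of 0.0521 each. MIEN1 (r = 0.812, rho = 0.833), TCAP (0.805, 0.667) and GRB7 (0.795, 0.405) had adjusted permutation p-values of 0.0719, 0.0719 and 0.0755 for r. ORMDL3 (r = 0.360, rho = -0.071), IKZF3 (0.228, -0.095) and PPP1R1B (0.171, 0.310) had adjusted permutation p-values of 0.507, 0.643 and 0.714. PPP1R1B, which had the largest fold change of the 10 between groups, had the lowest r with ERBB2. It had only 26 to 140 counts per library, and how far counting noise lowered its r was not tested.

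Farthest from the median of ERBB2 were NPY1R low replicate 4 and NPY1R high replicate 3, where ERBB2 deviated from its group mean by -0.37 and -0.26 log2 units. In NPY1R high replicate 1 all 10 genes were above their group mean, and in NPY1R high replicate 3 only 1 was. In NPY1R low, 9, 8, 5 and 2 of the 10 were above it in replicates 1 to 4. Without those 2 libraries r was 0.933 for STARD3, 0.814 for PGAP3 and 0.761 for PNMT, but 0.318 for GRB7 and 0.228 for TCAP, and that of IKZF3 was -0.784. With means removed within replicates 1 and 2 and within replicates 3 and 4 of each group, which leaves 4 independent differences, r was above 0 for all 45 pairs of amplicon genes, with a median of 0.66. No share over all genes tested was computed for this centring. Whether these values were particular to the amplicon genes was therefore not tested.

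The median r with ERBB2 was 0.805 over the 9 genes and 0.0146 over all other genes tested. High values of r were still reached by many genes outside the amplicon. Values of r above 0.8 were reached by 5 of the 9 genes and by 19.7% of all other genes tested, 2762 of 14007. Over the 45 pairs of amplicon genes the median r was 0.48, from -0.31 to 0.968, and 39 pairs were above 0. The 5 genes outside the amplicon most like ERBB2, by Pearson's r of log2 CPM over the 8 libraries among 7334 genes, were EPHB4 (0.997), DNAJC11 (0.992), ARHGAP27 (0.991), FHOD1 (0.991) and HID1 (0.990). STARD3 and PNMT reached 0.942 and 0.943 on that measure and would rank 174 in that list. The transcripts of the 5 genes had a GC content of 56.0% to 63.5%, where the median of the genes tested was 48.8%.

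The amplicon genes are GC rich as well. The principal transcript of ERBB2 has a GC content of 60.3%, that of PNMT 67.7% and that of ORMDL3 54.0%, while IKZF3 is the exception at 45.7%. With a smooth trend of level on GC content removed from each library, the spread of ERBB2 within groups shrank from 0.233 to 0.0442 log2 units, and that of PGAP3 from 0.234 to 0.0474. STARD3 (0.197 to 0.0560), TCAP (0.314 to 0.177) and PNMT (0.649 to 0.291) also came closer together. The spread of the other 5 genes did not shrink. It went from 0.0847 to 0.183 for MIEN1, from 0.249 to 0.344 for PPP1R1B, from 0.0414 to 0.0514 for ORMDL3, from 0.130 to 0.134 for GRB7 and from 0.198 to 0.201 for IKZF3. The median spread over all genes tested went from 0.161 to 0.132. The ERBB2 libraries then gave 11.66, 11.64, 11.57 and 11.69 log2 units in NPY1R high and 11.88, 11.81, 11.82 and 11.86 in NPY1R low, which no longer overlapped. On this scale 0 of 9 genes had an r with ERBB2 above 0.8, against 1.11% of all other genes tested, and the largest, that of IKZF3, was 0.651. The median r with ERBB2 was then -0.021 over the 9 genes and -0.0038 over all other genes tested. The median over the 45 pairs was -0.020, 22 pairs were above 0, and 0 of 9 genes passed an adjusted p of 0.05 (lowest adjusted permutation p = 0.706, with 0 of 9 under an unadjusted p of 0.05). This comparison was added after the data had been seen.

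**Figure D3:**
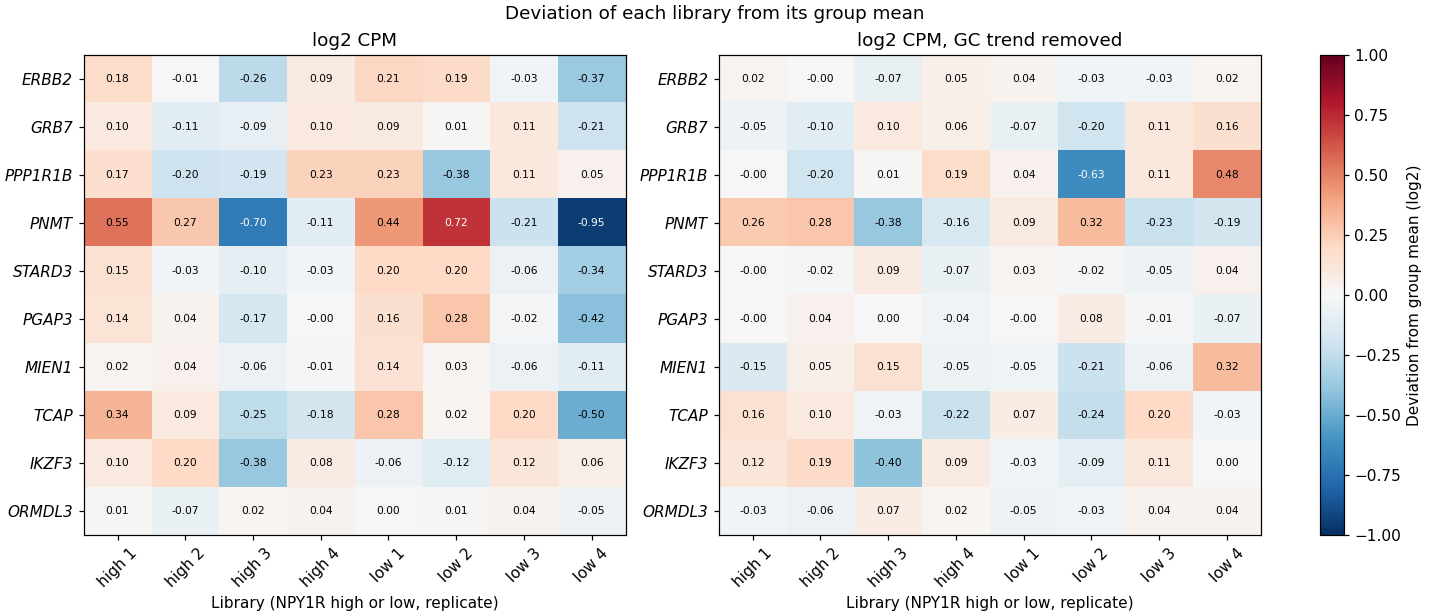
Deviation of each library from its group mean, in log2 units (colour and printed value), for the 10 amplicon genes (rows) in the 8 libraries (columns), as log2 CPM (left) and with each library's GC trend removed (right). On the left ERBB2, STARD3, PGAP3, PNMT and TCAP are low together in NPY1R low replicate 4, and on the right the values of ERBB2 lie between -0.072 and 0.051.

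The same correction changed the calls between groups. With an offset for GC content in the edgeR fit, 6 of the 10 genes were called, all lower in NPY1R high, where 12.8% of all genes tested were called lower. ERBB2 joined them with a log2 fold change of -0.20 (SE 0.0447, edgeR adjusted p = 0.0077), STARD3 with -0.25 (adjusted p = 0.00277) and PNMT with -0.99 (adjusted p = 0.00173). GRB7 (-0.49), PPP1R1B (-1.73) and ORMDL3 (-0.19) stayed past the threshold. With the GC trend removed the groups did not overlap for these same 6 genes, against 25.4% of all genes tested. PGAP3, MIEN1, TCAP and IKZF3 were called in neither fit. The ERBB2 difference became somewhat smaller, from -0.24 to -0.20, while its standard error fell from 0.136 to 0.0447.

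The 10 genes were compared with 39 neighbouring genes, chosen by position within 17q12-q21, of which 31 were tested. Copy number was not measured, so which of these neighbours lie inside the amplicon of BT474 is not known here. Of the 31, CACNB1 (log2 fold change 0.91), RAPGEFL1 (0.60) and IGFBP4 (0.57) were higher in NPY1R high, and LASP1 (-0.53) and TOP2A (-0.67) were lower by edgeR's adjusted p, which is 16.1% of them against 13.6% of all genes tested. The median log2 fold change of the 31 was -0.069. TOP2A, the topoisomerase of dividing cells, went from 640.2 ± 53.4 CPM in NPY1R low to 403 ± 36.7 in NPY1R high, and LASP1, an actin-binding protein, from 3461 ± 93.2 to 2402 ± 151. The nearest genes beyond the 10 on either side, NEUROD2 and LRRC3C, had 0 to 3 and 0 to 2 counts per library and were not tested. The nearest tested gene before PPP1R1B was CDK12, a transcription kinase, with a log2 fold change of -0.16 (edgeR adjusted p = 0.118). GSDMB, which lies between IKZF3 and ORMDL3, gave -0.27 (adjusted p = 0.398), and PSMD3, the first tested gene beyond ORMDL3, gave -0.082 (adjusted p = 0.549).

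**Figure D4:**
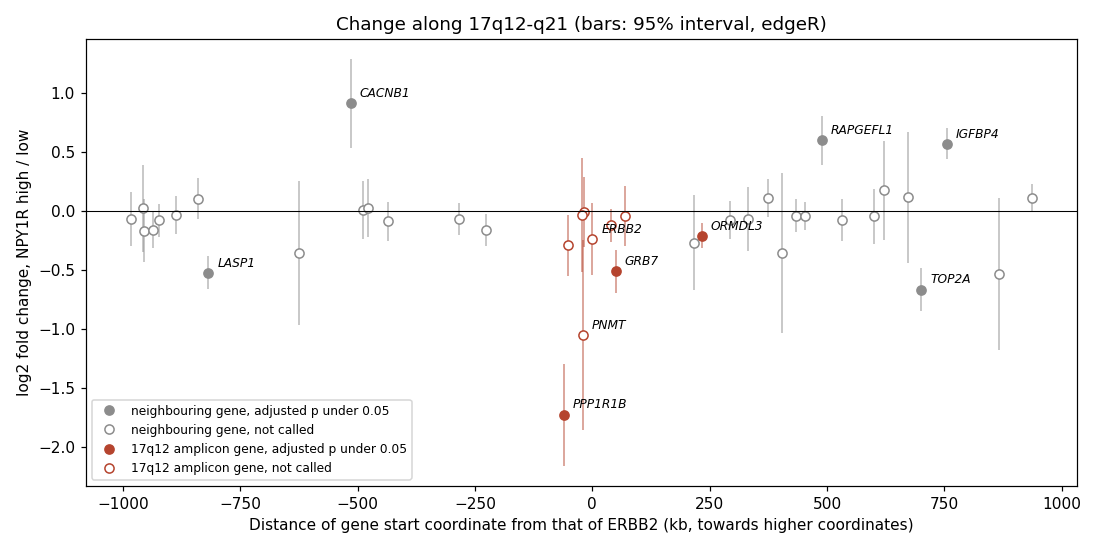
Log2 fold change, NPY1R high over low (vertical axis, bars 95% intervals from edgeR), against the distance of each gene's start coordinate from that of ERBB2 in kb, for the 10 amplicon genes (red) and 31 tested neighbours (grey), filled where the adjusted p was under 0.05. The red points run from -1.73 (PPP1R1B) to -0.012 (PGAP3), and called neighbours lie on both sides of 0.

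Among the partners and adaptors of HER2, 19 of 20 were measured and tested, and 2 rose and 2 fell in NPY1R high, which is 21.1% against 13.6% of all genes tested (median log2 fold change -0.069). EGFR, the partner receptor that lapatinib also inhibits, fell from 41.2 ± 6.04 to 22.9 ± 3.36 CPM (log2 fold change -0.85, edgeR adjusted p = 0.002). ERBB4, a receptor for neuregulins, rose by 0.33 (adjusted p = 0.0289) and PIK3R1, the regulatory subunit of PI3 kinase, by 0.67 (adjusted p = 3.9e-05). GRB2, the adaptor to the RAS pathway, fell by 0.18 (adjusted p = 0.0428). The count of 4 became 2 without any 1 of NPY1R high replicates 1, 2 and 4 and NPY1R low replicates 1, 2 and 3. With all libraries it was 3 with median-of-ratios factors, upper-quartile factors or library totals, with the other filters and in DESeq2. It was 2 with the replicate block and at an adjusted p of 0.01. It was 5 with the GC offset or with the covariate for replicates 1 and 2 against 3 and 4. With the GC offset it was 6 when the block was added and 8 when that covariate was added.

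Of 7 regulators linked to the ERBB2 promoter, 6 were tested, and 2 of them were called, both lower, where 13.6% of all genes tested were called and 7.81% were lower (list median -0.14). ETV4, an ETS factor, fell from 5.75 ± 0.526 CPM in NPY1R low to 1.19 ± 0.192 in NPY1R high, a log2 fold change of -2.26 (edgeR adjusted p = 1.8e-05), and ELF3, an epithelial ETS factor, fell by 0.25 (adjusted p = 0.0199). The count of 2 became 1 without NPY1R high replicate 2, 3 or 4 or NPY1R low replicate 1 or 3. With all libraries it was 1 with upper-quartile factors, without the filter on low counts and at an adjusted p of 0.01. It was 3 with the covariate for replicates 1 and 2 against 3 and 4, with or without the GC offset. Of 13 tested paralogues of the amplicon genes elsewhere in the genome, GRB10 (log2 fold change 0.49), IKZF2 (0.55) and ERBB4 rose, and EGFR fell, which is 30.8% against 13.6% of all genes tested (list median -0.034). GRB10, an adaptor of the same family as GRB7, thus rose where GRB7 fell (adjusted p = 0.00017).

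The pathways of the lipid genes were examined through lists chosen for their function. In sphingolipid synthesis, which ORMDL3 restrains, 16 of 16 genes were tested, 6 fell and 1 rose in NPY1R high, which is 43.8% called against 13.6% of all genes tested. The median over the list was -0.073. SPTLC1 (log2 fold change -0.26) and SPTLC2 (-0.23), the core subunits of serine palmitoyltransferase, and its small subunit SPTSSB (-0.59) fell, as did the ceramide synthases CERS6 (-0.37) and CERS4 (-0.50) and the desaturase DEGS1 (-0.28). SGMS2, a sphingomyelin synthase, rose by 0.53. By edgeR the count of 7 became 4 without NPY1R high replicate 4 or NPY1R low replicate 1, and 2 at an adjusted p of 0.01. It was 5 with upper-quartile factors, with library totals and without a filter. CERS4 was the seventh by adjusted p, outside the limit of 6 names per list, and was named to complete the list.

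Of 8 tested genes that attach or remodel GPI anchors, the pathway of PGAP3, 1 passed the threshold, PIGK, a subunit of the GPI transamidase (log2 fold change -0.38, edgeR adjusted p = 0.00551), which is 12.5% against 13.6% of all genes tested, and the list median was -0.075. Of 9 tested genes of late endosomes and sterol transport, the setting of STARD3, SCARB2, a lysosomal membrane protein, fell by 0.22 and OSBPL1A, an oxysterol-binding protein, rose by 0.58, which is 22.2% against the same 13.6%, with a list median of -0.066. That count of 2 became 1 without any 1 of NPY1R high replicates 1, 3 and 4 and NPY1R low replicates 1, 3 and 4. With all libraries it was also 1 with median-of-ratios factors, upper-quartile factors or library totals, with the other filters and with the replicate block. The cholesterol exporters NPC1 and NPC2 of that list were not called.

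**Figure D5:**
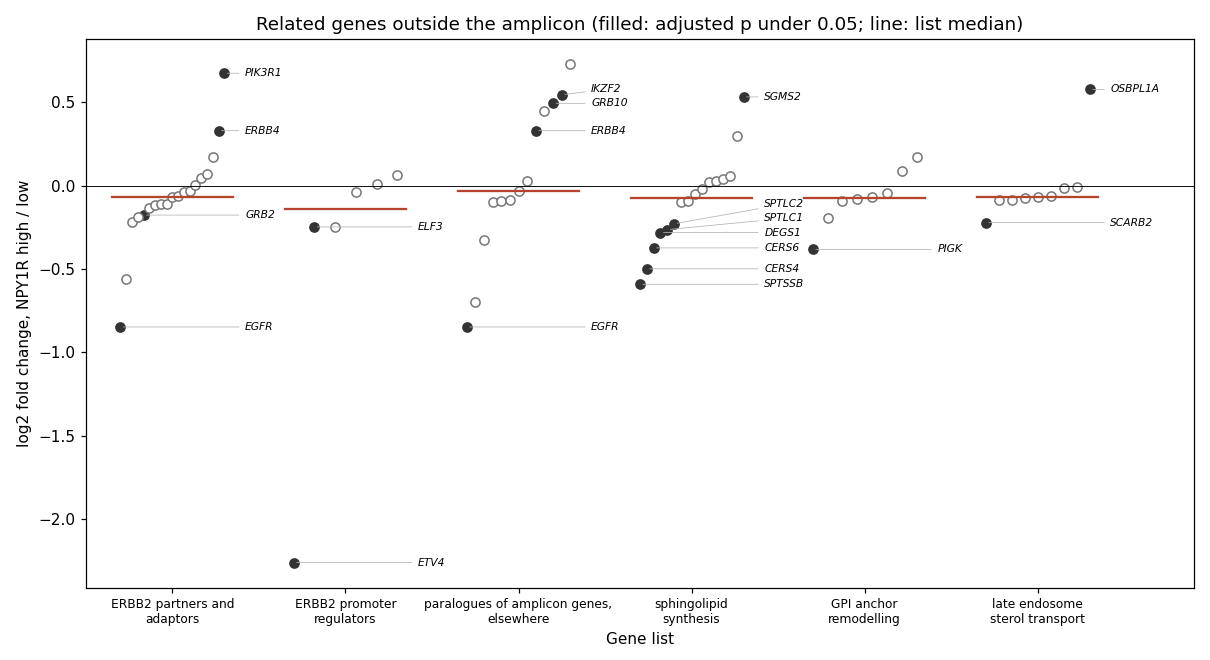
Log2 fold change, NPY1R high over low (vertical axis), of the tested genes of 6 lists related to the amplicon genes, ordered by value within each list, filled and named where the edgeR adjusted p was under 0.05, with the list median in red. The list medians lie between -0.14 and -0.034, and ETV4 at -2.26 is the lowest point.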

How the data were processed

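Total RNA of 8 BT474 samples was sequenced from 200 ng per sample after DNase treatment with a stranded kit, per the labels' protocols. The authors deposited expected counts per gene symbol; RSEM 1.3.0, STAR 2.5.2 and build hg38 are named in the submitters' processing notes, with no roles, and annotation and strand setting are not given in the sources used here. Values that were not whole made up 7.97% to 8.76% per library, so the expected counts were rounded, although the design had been written for whole counts. Samples were grouped by their labels. The members and gene lists were chosen with earlier results of these data known.

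Genes were filtered with filterByExpr (minimum count 10), libraries were scaled by TMM, and NPY1R high was compared with NPY1R low in edgeR 4.0.16 (R 4.3.3) by the quasi-likelihood test without covariates, with Benjamini-Hochberg adjustment over 14008 genes and a threshold of 0.05. Log2 CPM used a prior count of 2. Ratios to ERBB2 used log2 of counts plus 0.5 and two-sided exact permutation over 70 splits. Correlations used 576 permutations within groups. The GC offset was a spline with 5 degrees of freedom per library on the GC content of the principal GENCODE 29 transcript, known for 94.1% of tested genes. Positions and promoter windows came from RefSeq (GRCh38.p14). The fit was also run on simulated counts, drawn for each gene separately. They held no GC trend or other variation shared within a library, so that check does not cover such variation.

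Named were all 10 members, genes past the threshold in each list (at most 6 by adjusted p), the nearest measured neighbour on each side, the 5 genes with a mean CPM of at least 20 that were most like ERBB2, and NPY1R. Alternatives changed scaling, filter, tool (DESeq2 1.42.0, limma 3.58.1), covariates, GC correction and libraries. The libraries held no molecular identifiers that the labels name, so several counts can stem from 1 molecule.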

Additional observations from a re-analysis of the deposited data

How the results depend on the processing

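Recomputing 41 results under 30 alternatives gave 645 values. Of these, 515 were classed as the same, 45 changed the sign, 18 brought the result past the threshold, 6 took it back below, and 61 were classed as moved. The class of the same includes counts that shifted. Members called went from 3 to 2 with upper-quartile factors and to 4 with the replicate block, and both were classed as the same. So was the change from 810 to 1009 genes higher with upper-quartile factors. GRB7 and PPP1R1B were called throughout. The number of members called by edgeR, 3 of 10, was 5 when replicates 1 and 2 were set against 3 and 4 by a covariate, 6 with each of the GC offsets, and 2 to 6 without 1 library, with 6 without NPY1R low replicate 4. For ERBB2 the log2 fold change was -0.20 with the GC offset (edgeR adjusted p = 0.0077), -0.20 with that offset and the replicate block (0.00806), -0.20 with that offset and the replicate covariate (0.00266), -0.21 with the mean GC content of all transcripts (0.00964), and -0.32 to -0.13 without 1 library, where only the fit without NPY1R low replicate 4 passed the threshold.

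PGAP3, TCAP and IKZF3 changed sign without being called. PGAP3 was 0.016 to 0.027 with other TMM references, 0.014 with median-of-ratios factors, 0.044 with upper-quartile factors, 0.030 with library totals, 0.027 without a filter, 0.029 with 1 CPM in 4 libraries, 0.028 with 10 counts in every library, 0.014 in DESeq2, 0.0054 in limma-voom, 0.0052 with the replicate block, 0.038 with the GC offset, 0.038 with that offset and the block, 0.038 with that offset and the replicate covariate, 0.033 with mean GC, and -0.098 to 0.084 without 1 library. TCAP was up to 0.0039 with other TMM references, 0.018 with upper-quartile factors, 0.0079 with library totals, 0.0041 without a filter, 0.0056 with 1 CPM in 4 libraries, 0.0058 with 10 counts in every library, 0.0094 with the GC offset, 0.013 with that offset and the block, 0.014 with that offset and the replicate covariate, 0.0021 with mean GC, and -0.17 to 0.096 without 1 library. IKZF3 was 0.0040 with upper-quartile factors and -0.11 to 0.092 without 1 library. The log2 ratio of ORMDL3 to ERBB2 ranged from -0.072 to 0.13 without 1 library.

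Replicate numbers are shared by the groups, and the deviations of same-numbered libraries correlated at 0.339, 0.157, 0.0907 and 0.0178. These values do not decide whether libraries of the same number were paired, and the labels name no pairing. The deviations of 2 of 8 libraries correlated best with those of their own number. The fit with the replicate block called 805 genes higher and 1028 lower, and 4 members, with PNMT at -1.01 (edgeR adjusted p = 0.0167). With the GC trend removed, the correlation with ERBB2 was -0.020 for GRB7, -0.43 for STARD3, -0.45 for PGAP3, -0.087 for MIEN1, -0.021 for TCAP and -0.43 for ORMDL3, and the count past the threshold went from 3 to 0. Of all genes, 810 were higher and 1094 lower with TMM and its default reference, NPY1R low replicate 4. That excess of lower genes was nearly absent with median-of-ratios factors, with 898 higher and 905 lower. It was reversed with upper-quartile factors (1009 and 783) and with library totals (949 and 807). In the main fit the counts were 470 and 562 at an adjusted p of 0.01. They were 1342 and 2009 with the block and the GC offset, and 1647 and 2495 with that offset and the replicate covariate. Lower genes numbered 1681 with the replicate covariate alone, 1791 with the GC offset, 1731 with mean GC and 625 to 1064 without 1 library. The causes of the changes without 1 library were not tested. Scaling moved the median of all genes from -0.029 to at most 0.025. Depth limits PPP1R1B and TCAP, with 26 to 140 and 36 to 84 counts per library.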
